A study of Mus musculus with 11 samples.

Results

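The 77 genes described here are those whose array symbol follows the naming pattern of the mitochondrial ribosomal proteins, 48 with the stem Mrpl (large subunit) and 29 with the stem Mrps (small subunit), out of 19938 genes with a single-symbol probe set. The rule uses the name alone and no measured value. Mrpl53 was not analysed, since its probe set also carries another symbol. Each gene was represented by its brightest probe set over the 11 arrays, and 8 of the 77 genes had more than 1 probe set.

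Values are log2 signals of Affymetrix arrays, 1 array per sample, from mouse stomach. The pChePS_GC group holds 4 diffuse-type gastric cancers of mice that carry Pdx-1-Cre with 1 floxed Cdh1 allele (Cdh1F/+), Trp53F/F and Smad4F/F. The pCP_GC group holds 3 diffuse-type gastric cancers of Pdx-1-Cre mice with Cdh1F/F and Trp53F/F, in which Smad4 is not floxed. The NGE group holds 4 samples of normal gastric epithelium of mice labelled Pdx1-1-Cre-negative, for which no floxed allele and no age is stated. Pdx-1-Cre places the recombinase under the promoter of Pdx1, which is active in the distal stomach and the pancreas, so deletion is limited to cells of that origin, while the tumour pieces also hold unrecombined stroma. The Cre transgene itself is carried by the tumour groups alone. Whether replicates are different animals is not stated, and p-values therefore cover only the spread among these 11 arrays, which may be technical.

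The mitochondrial ribosome translates the few messenger RNAs that the mitochondrial genome encodes, all of them for subunits of the respiratory chain and ATP synthase. Its ribosomal RNAs come from mitochondrial DNA, but its proteins are encoded in the nucleus, made on cytosolic ribosomes and imported. Part of these proteins belong to families that bacteria share, and the others are found in mitochondria alone. Parietal cells, the acid-secreting cells of the normal stomach, are packed with mitochondria.

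The samples differ in more than their floxed alleles. Cdh1, which encodes E-cadherin, averaged 9.60 ± 1.09 in pChePS_GC and 11.20 ± 0.76 in pCP_GC, against 12.98 ± 0.05 in NGE (log2, SD, n = 4, 3 and 4). Smad4 averaged 10.49 ± 0.40 in pChePS_GC, 11.44 ± 0.05 in pCP_GC and 11.09 ± 0.05 in NGE. Of 9 parietal cell markers 8 fell in pChePS_GC and 6 in pCP_GC, of 6 chief cell markers 6 and 5 fell, and of 7 surface mucous cell markers 6 and 3 fell (limma, adjusted p under 0.05). Of 5 measured T cell markers 0 passed in pChePS_GC (limma, 0 with an unadjusted p under 0.05) and 1 fell in pCP_GC. All 8 macrophage, 6 endothelial, 6 smooth muscle and 13 measured proliferation markers rose in both tumour groups, as did 8 of 8 fibroblast markers in pChePS_GC and 7 of 8 in pCP_GC. The median level of a list per array ran from 7.65 to 8.09 in pChePS_GC and from 7.45 to 8.83 in pCP_GC for the parietal list, against 10.69 to 11.21 in NGE. For the fibroblast list it ran from 10.90 to 12.01 in pChePS_GC and from 10.72 to 11.91 in pCP_GC, against 7.60 to 8.31 in NGE. Replicate 2 of pCP_GC kept more of the parietal signal than the rest of its group, with Atp4a, the acid pump subunit, at 11.40 against 7.57 and 7.48. The same array had the highest fibroblast, macrophage, smooth muscle and chief cell medians of its group, at 11.9, 11.1, 11.8 and 9.87. Replicate 1 of pChePS_GC had the lowest smooth muscle median of the tumours, 8.64, where the other tumours lay between 10.38 and 12.30. Xist, the RNA of the inactive X chromosome, ran from 5.72 to 6.02 in pChePS_GC and from 5.57 to 5.81 in pCP_GC, against 11.54 to 12.66 in NGE, and Y-linked Eif2s3y ran the other way, so tumour and sex-linked differences cannot be told apart. None of the 77 genes is X-linked, and whether genes of the other lists named below are X-linked was not examined. In bulk tissue, fewer cells of a type and less RNA per cell cannot be told apart, and the part of cell makeup in the results below was not tested.

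In pChePS_GC 70 of the 77 genes lay above the median of all genes, in pCP_GC 71 and in NGE 74. The group means ran from 7.87 (Mrps36) to 11.51 (Mrpl23) in pChePS_GC, from 8.03 (Mrpl44) to 11.53 (Mrpl40) in pCP_GC and from 7.67 (Mrpl33) to 11.85 (Mrps21) in NGE. No group mean lay below the background level, taken as the 95th percentile over 1194 genes of odorant and pheromone receptors, which are silent in most tissues. That level was 6.99 in pChePS_GC, 6.86 in pCP_GC and 7.24 in NGE. These signals rank arrays within a probe set and do not compare one gene's amount with another's. The median SD of a member between arrays was 0.22 in pChePS_GC, 0.13 in pCP_GC and 0.14 in NGE, beside 0.18, 0.15 and 0.14 for all genes in the same order.

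Compared with NGE, and with the deposited values, the mitochondrial ribosomal protein genes did not move as a block in either tumour group. In pChePS_GC 11 of 77 rose and 11 fell (limma, Benjamini-Hochberg adjusted p under 0.05 over all genes), which is 28.6% of the members, where 42.1% of all genes passed (18.7% higher and 23.4% lower). In pCP_GC 8 rose and 7 fell, which is 19.5%, where 51.8% of all genes passed (20.0% higher and 31.8% lower). The members' median difference was -0.05 in pChePS_GC and 0.01 in pCP_GC on the log2 scale, beside medians over all genes of -0.10 and -0.12. No member changed by 2-fold or more in either comparison, and the 95% interval of the difference lay within 2-fold for 74 members in pChePS_GC and for 76 in pCP_GC. The groups did not overlap for 9 higher and 9 lower members in pChePS_GC, against 17.7% and 22.9% of all genes, and for 9 higher and 12 lower members in pCP_GC, against 24.0% and 35.6%.

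The split between higher and lower depended on how arrays were scaled. Centring each array on its median moved the median of all genes by -0.17 in pChePS_GC and -0.21 in pCP_GC against NGE, and left 5 members higher and 23 lower in pChePS_GC and 2 higher and 18 lower in pCP_GC, where 59.2% and 62.2% of all genes passed. Of all 19938 genes, 2695 were then higher and 9101 lower in pChePS_GC, and 2686 and 9716 in pCP_GC. After quantile normalization 5 were higher and 22 lower in pChePS_GC, and 5 higher and 19 lower in pCP_GC, where 40.9% and 43.4% of all genes passed. Over all genes, 3117 were then higher and 5045 lower in pChePS_GC, and 3223 and 5432 in pCP_GC. Relative to the median of all genes, the members' median stood 0.05 above it in pChePS_GC and 0.12 above it in pCP_GC with the deposited or centred values, and with quantile normalization the sign turned, at -0.11 and -0.10. Most members are brighter than the median gene. Among the 9969 genes left without the dimmest 50%, the median difference was 0.09 in pChePS_GC and 0.13 in pCP_GC. Both lie above the medians over all 77 members with the deposited values, -0.05 and 0.01. Every named member that passed kept its sign under both scalings. Of the named members that did not pass, Mrpl12, Mrps27 and Mrps30 turned below 0 in pChePS_GC after centring (-0.11, -0.11 and -0.0061), and Mrps27 also after quantile normalization (-0.10).

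**Figure D1:**
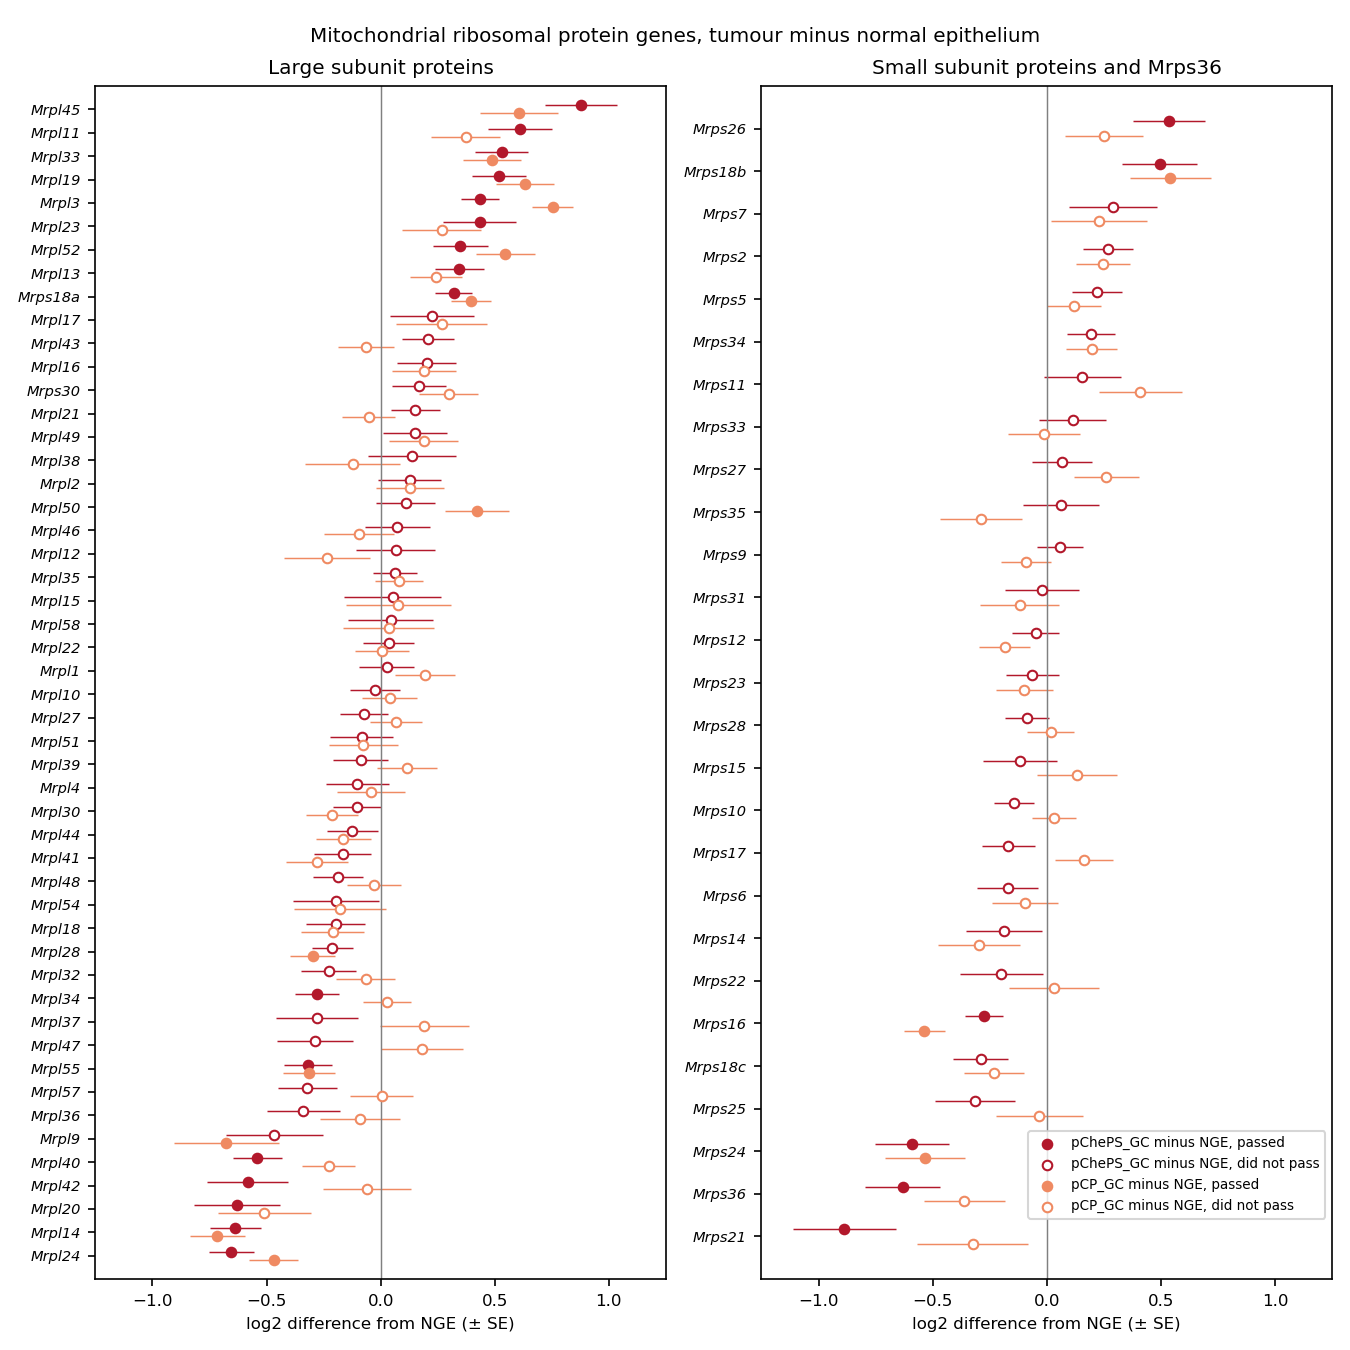
Log2 difference from NGE for each of the 77 genes, large subunit on the left and small subunit with Mrps36 on the right, with the SE as a bar. Filled points passed at an adjusted p under 0.05 and open points did not. Points spread on either side of 0, from -0.89 (Mrps21) to 0.88 (Mrpl45) in pChePS_GC and from -0.72 (Mrpl14) to 0.75 (Mrpl3) in pCP_GC.

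With the deposited values both directions occurred within each subunit. Of all genes, 42.1% passed in pChePS_GC and 51.8% in pCP_GC. Of the 50 large subunit genes measured, 9 rose and 7 fell in pChePS_GC, and 7 rose and 5 fell in pCP_GC. Of the 26 small subunit genes, 2 rose and 3 fell in pChePS_GC, and 1 rose and 2 fell in pCP_GC. The large subunit count includes Mrps18a and Mrps30, which were named as small subunit proteins but sit in the large subunit. Genes of families with a bacterial counterpart numbered 48, of which 8 rose and 8 fell in pChePS_GC and 5 rose and 7 fell in pCP_GC. Of the 28 genes found in mitochondria alone, 3 rose and 2 fell in pChePS_GC, and 3 rose and 0 fell in pCP_GC (limma), where the 2 comparisons share the NGE arrays. None of those 28 was lower in pCP_GC at an unadjusted limma p under 0.05 either, though the groups did not overlap for 3 higher and 3 lower of them there, against 24.0% and 35.6% of all genes. The 3 that rose in pCP_GC, Mrpl45, Mrpl50 and Mrpl52, all lost the call after centring. Mrpl45 and Mrpl50 also lost it after quantile normalization. Mrpl50 is named from this count, after its values were seen.

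Genes higher in both tumour groups numbered 7, namely Mrpl3, Mrpl19, Mrpl33, Mrpl45, Mrpl52, Mrps18a and Mrps18b. They make up 63.6% of the members that rose in pChePS_GC and 87.5% of those that rose in pCP_GC. Genes lower in both numbered 5, namely Mrpl14, Mrpl24, Mrpl55, Mrps16 and Mrps24, or 45.5% of those that fell in pChePS_GC and 71.4% in pCP_GC. Because both comparisons use the same NGE arrays, these overlaps are a description. No member passed in opposite directions, 25 passed in at least 1 comparison and 52 in neither. Mrpl55 is named from this count, after its values were seen.

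The start regions of 4 of these genes are printed, since among the genes that passed in both tumour groups Mrpl45 and Mrpl24 differed most from NGE in pChePS_GC in either direction, and Mrpl3 and Mrpl14 in pCP_GC. The sequences are from RefSeq. Each is 280 bases of GRCm38.p6, from 250 before the annotated start to 30 after it, on the plus strand, at chr11:97315466-97315745 (Mrpl45), chr9:105053018-105053297 (Mrpl3), chr17:45686099-45686378 (Mrpl14) and chr3:87919294-87919573 (Mrpl24). Capitals mark matches on either strand to the core of the NRF1 motif (GCGCA, any base, GCGC), to CCGGAAG, an ETS motif that GABP binds, or to AAGATGGCG, a YY1 motif.
Mrpl45: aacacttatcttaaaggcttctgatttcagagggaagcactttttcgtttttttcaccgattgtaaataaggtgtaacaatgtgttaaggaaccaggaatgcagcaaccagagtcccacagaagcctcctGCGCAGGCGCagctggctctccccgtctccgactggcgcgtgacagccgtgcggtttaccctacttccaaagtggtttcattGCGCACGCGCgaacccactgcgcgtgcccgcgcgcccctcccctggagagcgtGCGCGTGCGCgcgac
Mrpl3: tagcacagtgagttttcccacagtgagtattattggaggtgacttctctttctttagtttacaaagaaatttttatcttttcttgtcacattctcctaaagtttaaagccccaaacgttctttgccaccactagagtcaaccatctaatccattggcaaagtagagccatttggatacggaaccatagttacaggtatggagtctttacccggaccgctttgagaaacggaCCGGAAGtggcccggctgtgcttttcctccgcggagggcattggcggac
Mrpl14: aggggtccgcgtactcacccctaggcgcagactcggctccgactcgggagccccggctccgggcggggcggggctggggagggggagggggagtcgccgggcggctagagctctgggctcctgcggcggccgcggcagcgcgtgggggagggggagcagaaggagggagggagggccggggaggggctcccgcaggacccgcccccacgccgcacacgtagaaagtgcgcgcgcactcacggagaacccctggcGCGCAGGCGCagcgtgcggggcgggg
Mrpl24: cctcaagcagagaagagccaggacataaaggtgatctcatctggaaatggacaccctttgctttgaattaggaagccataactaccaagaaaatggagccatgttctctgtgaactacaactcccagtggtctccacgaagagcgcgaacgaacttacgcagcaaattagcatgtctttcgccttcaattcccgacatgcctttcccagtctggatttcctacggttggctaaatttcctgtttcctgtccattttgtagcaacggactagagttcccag
The higher gene Mrpl45 has 3 matches to the NRF1 motif, and the lower gene Mrpl14 has 1. Mrpl3 has 1 match to the ETS motif, and none of the 3 motifs is spelled in the window of Mrpl24. The windows differ in base content, with 78.2% G and C for Mrpl14, 56.8% for Mrpl45, 46.8% for Mrpl24 and 45.4% for Mrpl3.

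Start windows were matched for 68 of the 77 members, 74 windows in all. The ETS motif was found in 23 windows, 31.1%, where 34.7% of 49 cytosolic ribosomal protein windows and 11.1% of 21262 windows of protein-coding genes hold it. The NRF1 motif was found in 13 windows, 17.6%, against 8.16% and 6.11%, and the YY1 motif in 4, 5.41%, against 0 and 1.32%. Median G and C content was 58.4% for members, 57.5% for cytosolic ribosomal protein genes and 56.1% for all protein-coding genes. The matched members higher in both tumours had the ETS motif in 4 of 6 windows, those lower in both in 1 of 6, and those that passed in neither comparison in 15 of 50. For the NRF1 motif the counts were 1 of 6, 1 of 6 and 8 of 50. A match is a string of letters and does not show that a factor binds.

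Among the higher members, Mrpl45 differed most from NGE in pChePS_GC. Its protein lies near the exit of the nascent chain and ties the ribosome to the inner membrane. Mrpl45 measured 9.997, 10.03, 9.73 and 9.72 in pChePS_GC, 9.70, 9.20 and 9.90 in pCP_GC, and 9.08, 9.21, 8.78 and 8.91 in NGE. All 4 pChePS_GC arrays lay above every NGE array, while replicate 2 of pCP_GC fell just under the highest NGE value. The gene was 1.84-fold higher in pChePS_GC (log2 0.88, SE 0.16, adjusted p = 0.0016) and 1.52-fold higher in pCP_GC (log2 0.61, SE 0.17, adjusted p = 0.0125). In pCP_GC the call was lost without replicate 3 of that group (log2 0.46, adjusted p = 0.0554) and under both other scalings.

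Mrpl3, a core protein near the site of peptide bond formation, had the smallest SD of all members in pChePS_GC, 0.06. It measured 10.68, 10.81, 10.74 and 10.78 in pChePS_GC, 11.07, 11.05 and 11.08 in pCP_GC, and 10.34, 10.49, 10.16 and 10.27 in NGE. The 3 groups did not overlap, with pCP_GC highest and NGE lowest. The difference from NGE was 0.44 in pChePS_GC (SE 0.08, adjusted p = 0.00218) and 0.75 in pCP_GC (SE 0.09, adjusted p = 0.000129), or 1.35-fold and 1.69-fold.

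Mrpl19, another large subunit protein with a bacterial counterpart, followed a like order. Its values were 10.25, 10.17, 9.89 and 10.30 in pChePS_GC, 10.24, 10.26 and 10.30 in pCP_GC, and 9.67, 9.87, 9.39 and 9.61 in NGE. Every tumour array lay above every NGE array, though pChePS_GC replicate 3 did so by little. Mrpl19 was 1.43-fold higher in pChePS_GC (log2 0.52, SE 0.12, adjusted p = 0.00603) and 1.55-fold higher in pCP_GC (log2 0.63, SE 0.13, adjusted p = 0.00248).

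Mrpl33, the dimmest member in NGE, measured 8.43, 8.05, 8.09 and 8.24 in pChePS_GC, 8.07, 8.35 and 8.07 in pCP_GC, and 7.44, 7.74, 7.77 and 7.75 in NGE. Its tumour and NGE values did not overlap, and NGE replicate 1 stood below the other NGE arrays. The differences from NGE were 0.53 (SE 0.12, adjusted p = 0.00528) in pChePS_GC and 0.49 (SE 0.13, adjusted p = 0.00888) in pCP_GC. After centring the pCP_GC call was lost (0.27, adjusted p = 0.0921).

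Mrpl52, a protein found in mitochondria alone, measured 10.35, 10.33, 10.36 and 10.80 in pChePS_GC, 10.68, 10.58 and 10.72 in pCP_GC, and 10.25, 10.16, 9.91 and 10.11 in NGE. Groups did not overlap, but 3 of the pChePS_GC arrays lay close to the highest NGE array. The difference was 0.35 in pChePS_GC (SE 0.12, adjusted p = 0.0376) and 0.55 in pCP_GC (SE 0.13, adjusted p = 0.0056). The pChePS_GC call was lost without NGE replicate 3 (log2 0.28, adjusted p = 0.105), NGE replicate 4 (0.35, adjusted p = 0.0762), pChePS_GC replicate 4 (0.24, adjusted p = 0.0716) or pCP_GC replicate 1 (0.35, adjusted p = 0.0509). It was also lost in the fit of only the 2 groups, after centring and after quantile normalization (adjusted p up to 0.263). In pCP_GC centring took the adjusted p to 0.0598.

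Mrpl11 and Mrps26 passed in pChePS_GC alone. Mrpl11, which forms the base of the stalk where translation factors dock, measured 10.14, 10.28, 9.92 and 10.21 in pChePS_GC, 10.08, 9.70 and 9.92 in pCP_GC, and 9.36, 9.91, 9.36 and 9.48 in NGE. NGE replicate 2 reached the range of pCP_GC, where the other NGE arrays lay below every tumour array. The difference was 0.61 in pChePS_GC (SE 0.14, adjusted p = 0.0065) and 0.37 in pCP_GC (adjusted p = 0.0597). In pCP_GC the adjusted p was 0.00858 without NGE replicate 2 and 0.043 without pCP_GC replicate 2. Mrps26, a small subunit protein without a bacterial counterpart, measured 8.65, 9.09, 9.16 and 9.40 in pChePS_GC, 8.88, 8.61 and 8.89 in pCP_GC, and 8.73, 8.66, 8.29 and 8.49 in NGE. The groups overlapped, since pChePS_GC replicate 1 lay within the NGE range. Its difference of 0.54 in pChePS_GC (SE 0.16, adjusted p = 0.0206) was lost without NGE replicate 3 (0.45, adjusted p = 0.0624) or NGE replicate 4 (0.52, adjusted p = 0.0526), after centring (0.36, adjusted p = 0.0743) and after quantile normalization (0.32, adjusted p = 0.142). The difference between the tumour groups was tested for both genes and did not pass, at 0.24 (95% interval -0.10 to 0.57) for Mrpl11 and 0.28 (-0.09 to 0.66) for Mrps26.

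The 3 paralogs of bacterial protein S18 differed among themselves. Mrps18a measured 10.74, 10.72, 10.85 and 10.58 in pChePS_GC, 10.82, 10.71 and 10.87 in pCP_GC, and 10.41, 10.48, 10.39 and 10.34 in NGE, with no overlap between tumours and NGE. It was higher by 0.32 in pChePS_GC (SE 0.08, adjusted p = 0.01) and by 0.40 in pCP_GC (SE 0.09, adjusted p = 0.00374), calls that centring took to an adjusted p of 0.217 in pChePS_GC and 0.152 in pCP_GC, and quantile normalization to 0.0631 in pChePS_GC. Mrps18b, a small subunit protein, measured 10.54, 10.48, 11.27 and 10.66 in pChePS_GC, 10.78, 10.61 and 10.97 in pCP_GC, and 10.32, 10.33, 10.08 and 10.25 in NGE. Groups did not overlap, and replicate 3 of pChePS_GC stood above all others. Its differences were 0.49 (SE 0.16, adjusted p = 0.0325) in pChePS_GC and 0.54 (SE 0.18, adjusted p = 0.0246) in pCP_GC. Leaving out NGE replicate 1, 3 or 4 took the pChePS_GC call to an adjusted p of 0.056, 0.0877 and 0.0675, and leaving out NGE replicate 3 or pCP_GC replicate 1 or 3 took the pCP_GC call to 0.0642, 0.058 and 0.0901. Centring took the adjusted p to 0.126 in pChePS_GC and 0.144 in pCP_GC, and quantile normalization to 0.114 and 0.12.

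Mrps18c, also a small subunit protein, went the other way in level. It measured 10.75, 10.56, 10.38 and 10.29 in pChePS_GC, 10.60, 10.50 and 10.56 in pCP_GC, and 10.56, 11.01, 10.75 and 10.81 in NGE, with overlapping groups. The differences of -0.29 in pChePS_GC (adjusted p = 0.0734) and -0.23 in pCP_GC (adjusted p = 0.156) did not pass. In pChePS_GC the adjusted p was 0.0143 after centring, 0.0454 without NGE replicate 1 and 0.0293 without pChePS_GC replicate 1.

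**Figure D2:**
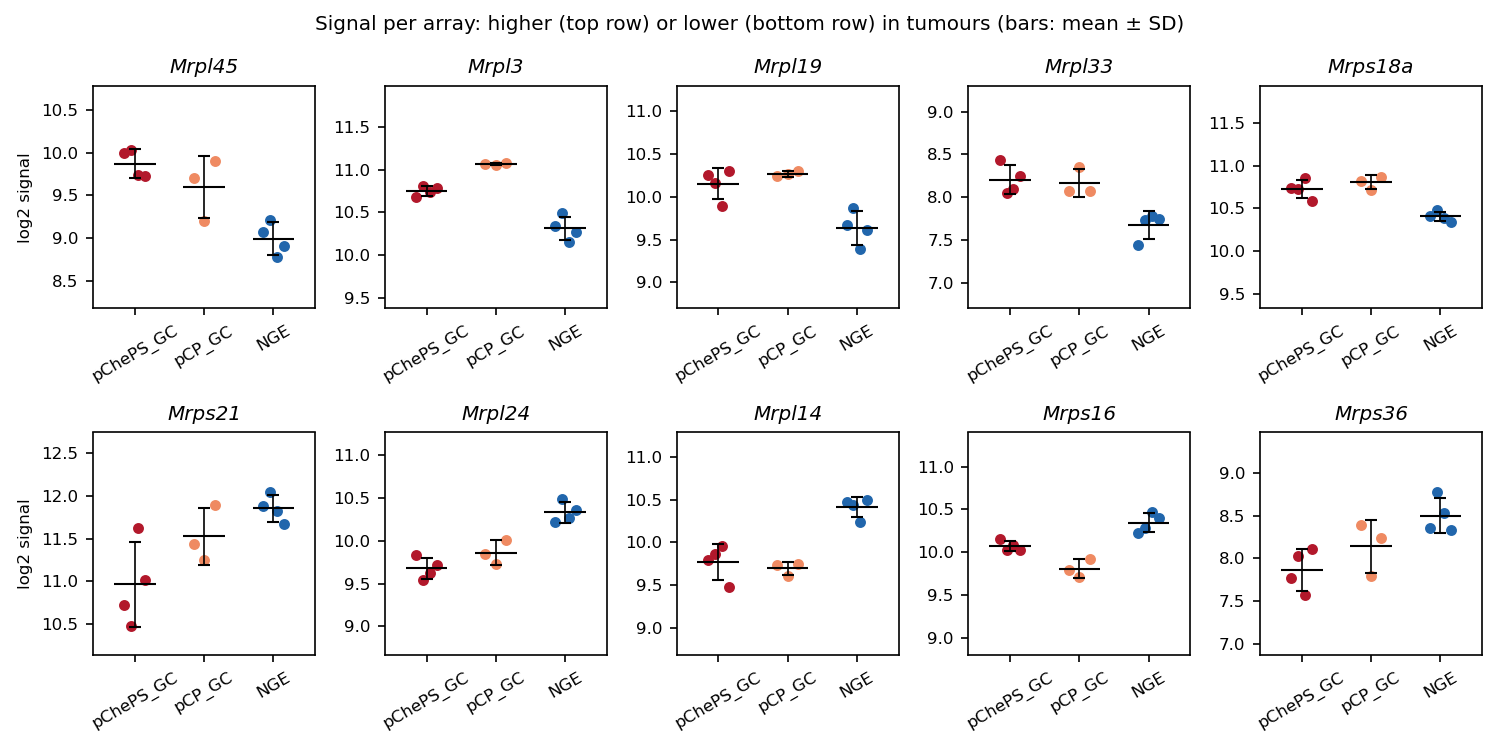
Log2 signal of 10 members in each array, pChePS_GC, pCP_GC and NGE from left to right, with the mean ± SD of each group (n = 4, 3 and 4). The 5 genes of the top row were higher and the 5 of the bottom row lower in pChePS_GC, and each vertical axis spans the same number of log2 units. Mrpl3 separated all 3 groups, and Mrps21 spread widely in pChePS_GC.

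Among the lower members, Mrpl24 and Mrpl14 passed in both tumour groups under every alternative tried. Both are core large subunit proteins with bacterial counterparts, and Mrpl14 lies on the face that meets the small subunit. Mrpl24 measured 9.83, 9.54, 9.63 and 9.72 in pChePS_GC, 9.84, 9.73 and 10.01 in pCP_GC, and 10.22, 10.49, 10.26 and 10.36 in NGE. Mrpl14 measured 9.80, 9.87, 9.96 and 9.48 in pChePS_GC, 9.73, 9.61 and 9.75 in pCP_GC, and 10.48, 10.44, 10.24 and 10.49 in NGE. Every tumour array lay below every NGE array for both genes. Mrpl24 differed from NGE by -0.65 in pChePS_GC (SE 0.10, adjusted p = 0.000532) and by -0.47 in pCP_GC (SE 0.11, adjusted p = 0.00456). For Mrpl14 the differences were -0.64 (SE 0.11, adjusted p = 0.00131) and -0.72 (SE 0.12, adjusted p = 0.000964), so its level in pChePS_GC was 0.643 of that in NGE and its level in pCP_GC 0.609.

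Mrps21 showed the largest fall of the members in pChePS_GC, and the largest spread there. This small subunit protein belongs to a family with a bacterial counterpart. It measured 10.73, 10.48, 11.63 and 11.02 in pChePS_GC, 11.44, 11.25 and 11.90 in pCP_GC, and 11.88, 12.04, 11.82 and 11.67 in NGE. The pChePS_GC arrays lay below NGE, replicate 3 by little, while pCP_GC overlapped NGE. The difference was -0.89 in pChePS_GC (SE 0.23, adjusted p = 0.0107) and -0.33 in pCP_GC (SE 0.24, adjusted p = 0.281).

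Mrps16 and Mrps24, small subunit proteins with bacterial counterparts, were lower in both tumour groups. Mrps16 measured 10.15, 10.02, 10.09 and 10.03 in pChePS_GC, 9.79, 9.71 and 9.92 in pCP_GC, and 10.23, 10.28, 10.47 and 10.40 in NGE, and the 3 groups did not overlap. Its difference was -0.27 in pChePS_GC (SE 0.08, adjusted p = 0.0234) and -0.54 in pCP_GC (SE 0.09, adjusted p = 0.000963). The pChePS_GC call was lost without NGE replicate 3 (adjusted p = 0.0663), NGE replicate 4 (0.0652) or pChePS_GC replicate 2 (0.0587). Mrps24 measured 9.92, 10.33, 10.39 and 10.85 in pChePS_GC, 10.46, 10.29 and 10.54 in pCP_GC, and 11.02, 11.03, 10.91 and 10.89 in NGE, also without overlap, though pChePS_GC replicate 4 came close. Its differences were -0.59 (SE 0.16, adjusted p = 0.0155) and -0.53 (SE 0.18, adjusted p = 0.0259). In pCP_GC the adjusted p ran from 0.0531 to 0.0892 without NGE replicate 1 or 2 or pCP_GC replicate 1 or 2.

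Mrpl20 and Mrpl9, large subunit proteins with bacterial counterparts, passed in 1 comparison each. Mrpl20 measured 8.72, 8.73, 8.96 and 9.31 in pChePS_GC, 9.09, 8.96 and 9.10 in pCP_GC, and 9.26, 10.13, 9.38 and 9.46 in NGE. NGE replicate 2 stood well above the rest of NGE, and pChePS_GC replicate 4 overlapped NGE. The difference of -0.63 in pChePS_GC (SE 0.19, adjusted p = 0.0223) was lost without pChePS_GC replicate 1 (adjusted p = 0.0536) or 2 (0.061), and that of -0.51 in pCP_GC (adjusted p = 0.0557) passed without NGE replicate 1 (0.0408) or pChePS_GC replicate 4 (0.0395). Mrpl9 measured 9.50, 9.15, 10.05 and 9.02 in pChePS_GC, 9.47, 9.05 and 9.14 in pCP_GC, and 9.92, 10.12, 9.58 and 9.96 in NGE. Its difference of -0.68 in pCP_GC (SE 0.23, adjusted p = 0.0292) was lost without NGE replicate 1, 2 or 4 or pCP_GC replicate 2 or 3, with adjusted p from 0.0588 to 0.096. In pChePS_GC replicate 3 lay inside the NGE range, and the difference of -0.47 did not pass (adjusted p = 0.0955).

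Mrps36 carries a mitoribosome name but encodes a subunit of the oxoglutarate dehydrogenase complex of the citric acid cycle. It measured 7.77, 8.03, 7.57 and 8.11 in pChePS_GC, 8.39, 7.79 and 8.23 in pCP_GC, and 8.35, 8.78, 8.54 and 8.33 in NGE. All pChePS_GC arrays lay below NGE, and pCP_GC replicate 1 overlapped it. The difference was -0.63 in pChePS_GC (SE 0.16, adjusted p = 0.0119) and -0.36 in pCP_GC (SE 0.18, adjusted p = 0.109). A further probe set of Mrps36 gave -0.65 and -0.37.

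Members with well-known roles in translation were among those that did not pass. Mrpl12, the stalk protein that contacts translation factors, measured 10.50, 10.92, 10.60 and 11.42 in pChePS_GC, 10.68, 10.37 and 10.64 in pCP_GC, and 10.78, 10.77, 10.77 and 10.85 in NGE. The pChePS_GC arrays lay on both sides of NGE, and the differences were 0.07 in pChePS_GC (95% interval -0.32 to 0.45) and -0.23 in pCP_GC (-0.65 to 0.18). Mrps12, at the decoding site, had a difference of -0.05 (-0.28 to 0.18) in pChePS_GC and -0.18 (-0.43 to 0.06) in pCP_GC. Mrpl44, whose fold resembles ribonuclease III, had -0.12 (-0.37 to 0.12) and -0.16 (-0.43 to 0.10). Intervals that include 0 do not show that these levels were equal.

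Mrps27, which carries pentatricopeptide repeats, differed by 0.07 (-0.22 to 0.35) in pChePS_GC and by 0.26 (-0.05 to 0.57, adjusted p = 0.141) in pCP_GC. Mrps30 of the large subunit differed by 0.17 (-0.09 to 0.43) and by 0.30 (0.01 to 0.58, adjusted p = 0.0736). Both passed in pCP_GC once NGE replicate 2 was left out, with adjusted p of 0.0264 for Mrps27 and 0.0452 for Mrps30.

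The counts themselves also shifted when single arrays were left out. Over all 19938 genes these fits gave 2927 to 3889 higher and 3129 to 5195 lower in pChePS_GC. For pCP_GC they gave 3300 to 4187 higher and 5004 to 6440 lower. In pChePS_GC 6 members rose without NGE replicate 3 or without NGE replicate 4, and 7 fell without pChePS_GC replicate 2. In pCP_GC 5 rose without pCP_GC replicate 3, and 3 fell without NGE replicate 2 or without pCP_GC replicate 2, and 4 without NGE replicate 4. Without pCP_GC replicate 2, the array that stood apart from its group in several cell markers, 10 members rose in pCP_GC. Without pChePS_GC replicate 1, the array low in smooth muscle markers, 11 rose and 9 fell in pChePS_GC. The calls that held at the threshold of 0.05 under every alternative tried were Mrpl3, Mrpl11, Mrpl19, Mrpl33 and Mrpl45 among the higher, and Mrpl14, Mrpl24, Mrpl40, Mrps21, Mrps24 and Mrps36 among the lower, in pChePS_GC. In pCP_GC they were Mrpl3 and Mrpl19, and Mrpl14, Mrpl24 and Mrps16. Mrpl40 is named from this count, after its values were seen.

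The tumour genotypes were compared directly, which bears on the floxed Smad4 alleles and on the differing Cdh1 dose. No member passed between pChePS_GC and pCP_GC (limma, adjusted p under 0.05), where 0.366% of all genes passed (0.115% higher and 0.251% lower), and 11 members had an unadjusted p under 0.05. The median difference of the members was -0.02, beside 0.04 for all genes. The 95% interval lay within 2-fold for 76 members and within 1.5-fold for 58. The groups did not overlap for 2 higher and 4 lower members, against 9.5% and 4.4% of all genes.

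Mrpl3 had the smallest adjusted p of the members between the tumours, at a difference of -0.32 (95% interval -0.51 to -0.12, adjusted p = 0.155), and its groups did not overlap. Mrps16 differed by 0.26 (0.07 to 0.46, adjusted p = 0.202), also without overlap. Mrps21 had the largest difference, -0.56 (-1.10 to -0.02, adjusted p = 0.286), with overlapping groups. Mrpl42, a protein found in mitochondria alone and named after its values were seen, measured 8.59, 8.78, 8.55 and 9.42 in pChePS_GC, 9.38, 9.31 and 9.37 in pCP_GC, and 9.39, 9.70, 9.23 and 9.35 in NGE. Replicates 1 to 3 of pChePS_GC lay below every other array, and replicate 4 lay with the other groups. Its difference between the tumours was -0.52 (-0.95 to -0.10, adjusted p = 0.23), and it was the 1 member that passed without pChePS_GC replicate 4 (-0.72, adjusted p = 0.0477).

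The cytosolic ribosomal protein genes served as a reference on the same arrays. Of these 53 measured genes, whose proteins build the ribosomes of the cytoplasm, 39 rose in pChePS_GC and 27 in pCP_GC against NGE, and none fell. Of all genes, 18.7% rose in pChePS_GC and 20.0% in pCP_GC. Their median difference was 0.49 in pChePS_GC and 0.29 in pCP_GC. After centring, 27 rose in pChePS_GC, while in pCP_GC 2 rose and 1 fell, so the pCP_GC count rests on the scaling. Without pChePS_GC replicate 1, 37 rose in pChePS_GC, and without pCP_GC replicate 2, 26 rose in pCP_GC. With quantile normalization 41 rose in pChePS_GC, and 31 rose and 1 fell in pCP_GC. Over all 19938 genes, 2695 rose in pChePS_GC and 2686 in pCP_GC after centring, and 3117 and 3223 with quantile normalization. The median level of the list per array ran from 12.73 to 12.93 in pChePS_GC and from 12.53 to 12.59 in pCP_GC, against 12.23 to 12.35 in NGE, with no overlap between any of the groups on this measure. On the list's median deviation from the NGE mean, the 2 tumour groups overlapped. Rps21 differed most in both, by 1.07 in pChePS_GC (adjusted p = 0.00564) and 0.97 in pCP_GC (adjusted p = 0.00995). For the mitochondrial list the same median ran from 9.79 to 10.01 in pChePS_GC and from 9.71 to 9.92 in pCP_GC, against 9.86 to 10.09 in NGE, and all groups overlapped.

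Genes that build the cytosolic ribosome, from RNA polymerase I to nucleolar assembly factors, rose in 19 of 24 cases in pChePS_GC and 20 of 24 in pCP_GC, where 18.7% and 20.0% of all genes rose. Their median differences were 0.69 and 0.71, and 14 and 15 rose after centring, 15 and 15 with quantile normalization. Without pChePS_GC replicate 1, 19 rose in pChePS_GC, and without pCP_GC replicate 2, 19 rose in pCP_GC. Over all 19938 genes, 2695 rose in pChePS_GC and 2686 in pCP_GC after centring, and 3117 and 3223 with quantile normalization. Nop58, a nucleolar small RNA-protein component, was higher by 1.14 in pChePS_GC (adjusted p = 0.00221) and 1.09 in pCP_GC (adjusted p = 0.00341).

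Nuclear genes of the respiratory chain and ATP synthase, whose partner subunits the mitochondrial ribosome makes, fell in 36 of 41 cases in pChePS_GC and 33 of 41 in pCP_GC, and none rose, where 23.4% and 31.8% of all genes fell. Their median differences were -0.53 and -0.62, and 39 fell in each after centring, 34 and 32 with quantile normalization. Without pChePS_GC replicate 1 the count was 33 in pChePS_GC, and without pCP_GC replicate 2 it was 28 in pCP_GC. Over all 19938 genes, 9101 fell in pChePS_GC and 9716 in pCP_GC after centring, and 5045 and 5432 with quantile normalization. Per array, the median deviation of this list from the NGE mean ran from -0.72 to -0.43 in pChePS_GC and from -0.67 to -0.45 in pCP_GC, against -0.04 to 0.10 in NGE. The parietal markers fell in the same tumours, and their part in this difference was not tested. For the mitochondrial ribosomal list the deviation ran from -0.10 to 0.09 in pChePS_GC and from -0.05 to 0.06 in pCP_GC, against -0.10 to 0.15 in NGE.

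**Figure D3:**
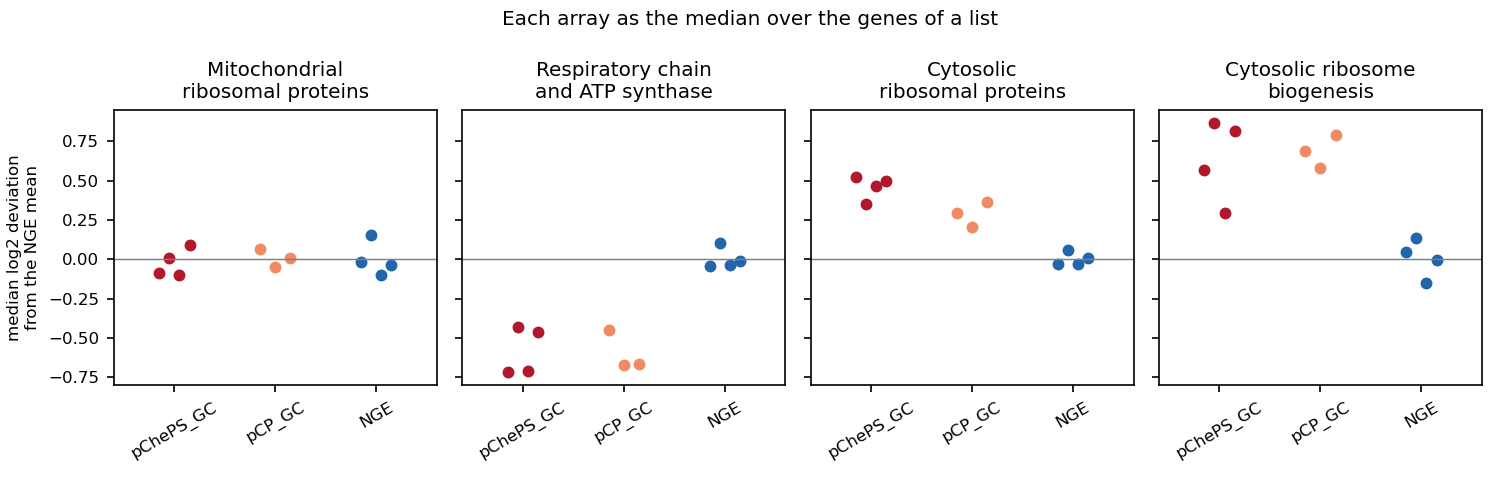
Median log2 deviation from the NGE mean over the genes of 4 lists, 1 point per array, with pChePS_GC, pCP_GC and NGE from left to right. The mitochondrial ribosomal list overlaps between groups with the deposited values, where the respiratory list lies below NGE and the 2 cytosolic lists above it. Centring lowers all tumour points, and then 2 cytosolic ribosomal protein genes rose and 1 fell in pCP_GC.

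The other genes of mitochondrial translation also split in direction with the deposited values. Over all genes, 18.7% were higher and 23.4% lower in pChePS_GC, and 20.0% and 31.8% in pCP_GC. After centring, 2695 of the 19938 genes were higher and 9101 lower in pChePS_GC, and 2686 and 9716 in pCP_GC. Of 4 measured subunits with other symbols, Gadd45gip1 rose in pChePS_GC (0.48, adjusted p = 0.0394, but 0.141 after centring and 0.237 after quantile normalization), and Dap3, Ptcd3 and Chchd1 differed by 0.07, -0.05 and 0.06. In pCP_GC none of the 4 passed (limma, 0 with an unadjusted p under 0.05). Of 13 translation factors, 1 rose and 3 fell in pChePS_GC, and 0 rose and 1 fell in pCP_GC, while after centring 0 and 5, and 0 and 3, did so. Taco1, an activator of cytochrome oxidase subunit translation, fell in both, with differences of -0.69 (adjusted p = 0.00347) and -0.55 (adjusted p = 0.0115). The elongation factor genes Gfm1 (-0.61, adjusted p = 0.00667) and Gfm2 (-0.72, adjusted p = 0.0218) were lower in pChePS_GC, Gfm2 being a recycling factor despite its name, and Oxa1l, which inserts new proteins into the inner membrane, was higher there (0.33, adjusted p = 0.0119, but 0.206 after centring). Oxa1l is named from the count, after its value was seen.

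Of 21 assembly factors, 2 rose and 4 fell in pChePS_GC, and 3 rose and 2 fell in pCP_GC, against 2 and 9, and 2 and 8, after centring. With the deposited values 28.6% passed in pChePS_GC and 23.8% in pCP_GC, where 42.1% and 51.8% of all genes passed. After centring, 2695 of all 19938 genes rose and 9101 fell in pChePS_GC, and 2686 and 9716 in pCP_GC. Gtpbp10, a GTPase of large subunit assembly, measured 10.15, 9.72, 9.27 and 9.75 in pChePS_GC, 9.62, 9.89 and 9.68 in pCP_GC, and 8.78, 9.03, 8.48 and 8.70 in NGE. All tumour arrays lay above NGE, with differences of 0.98 in pChePS_GC (SE 0.18, adjusted p = 0.0016) and 0.98 in pCP_GC (SE 0.19, adjusted p = 0.002). Malsu1, whose human counterpart binds the Mrpl14 protein and keeps the subunits from joining early, rose by 0.59 in pChePS_GC (adjusted p = 0.000536), where Mrpl14 itself fell. Mrpl14 fell in pCP_GC too (-0.72), but Malsu1 was not among the 3 factors that rose there. Besides Gtpbp10, those were Noa1 (0.59, adjusted p = 0.0302, but 0.125 after centring and 0.106 after quantile normalization) and Tfb1m, a methyltransferase of the small subunit RNA (0.59, adjusted p = 0.00345).

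Mitochondrial aminoacyl-tRNA synthetases, which charge the transfer RNAs, fell in 5 of 17 cases in pChePS_GC and 2 of 17 in pCP_GC. Of all genes, 23.4% fell in pChePS_GC and 31.8% in pCP_GC. None rose in pChePS_GC, and in pCP_GC 1 did, Wars2, for tryptophan (0.58, adjusted p = 0.016). After centring 6 fell in pChePS_GC and 5 in pCP_GC, after quantile normalization 7 and 5, and none rose, with Wars2 at an adjusted p of 0.102 and 0.189 in pCP_GC. Over all 19938 genes, 9101 fell in pChePS_GC and 9716 in pCP_GC after centring, and 5045 and 5432 after quantile normalization. Vars2, for valine, measured 10.44, 10.27, 10.08 and 9.64 in pChePS_GC, 9.86, 9.98 and 10.03 in pCP_GC, and 11.07, 11.20, 11.19 and 11.42 in NGE. No tumour array reached NGE, and the differences were -1.11 (SE 0.15, adjusted p = 0.000315) in pChePS_GC and -1.26 (SE 0.17, adjusted p = 0.000253) in pCP_GC, larger in size than that of any ribosomal protein member. Fars2, for phenylalanine, fell as well, with differences of -0.69 (adjusted p = 0.000216) and -0.66 (adjusted p = 0.000465). Of 16 genes of mitochondrial DNA upkeep, transcription and RNA maturation, 1 rose and 3 fell in pChePS_GC, and 2 rose and 1 fell in pCP_GC. These are 25% and 18.8% of the list, where 42.1% and 51.8% of all genes passed. Ssbp1, the mitochondrial single-strand DNA binding protein, rose in both, by 0.77 (adjusted p = 0.00361) and 0.84 (adjusted p = 0.00267), and Tfam, the packaging and transcription factor of mitochondrial DNA, rose in pCP_GC (0.45, adjusted p = 0.0208). The Tfam call was lost after centring (adjusted p = 0.211) and quantile normalization (0.399). The list then had 1 higher and 5 lower in pChePS_GC under either scaling, and in pCP_GC 1 and 4 after centring and 1 and 3 after quantile normalization. Hsd17b10, a subunit of mitochondrial RNase P, fell in both, with differences of -0.54 (adjusted p = 0.00557) and -0.48 (adjusted p = 0.0107).

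**Figure D4:**
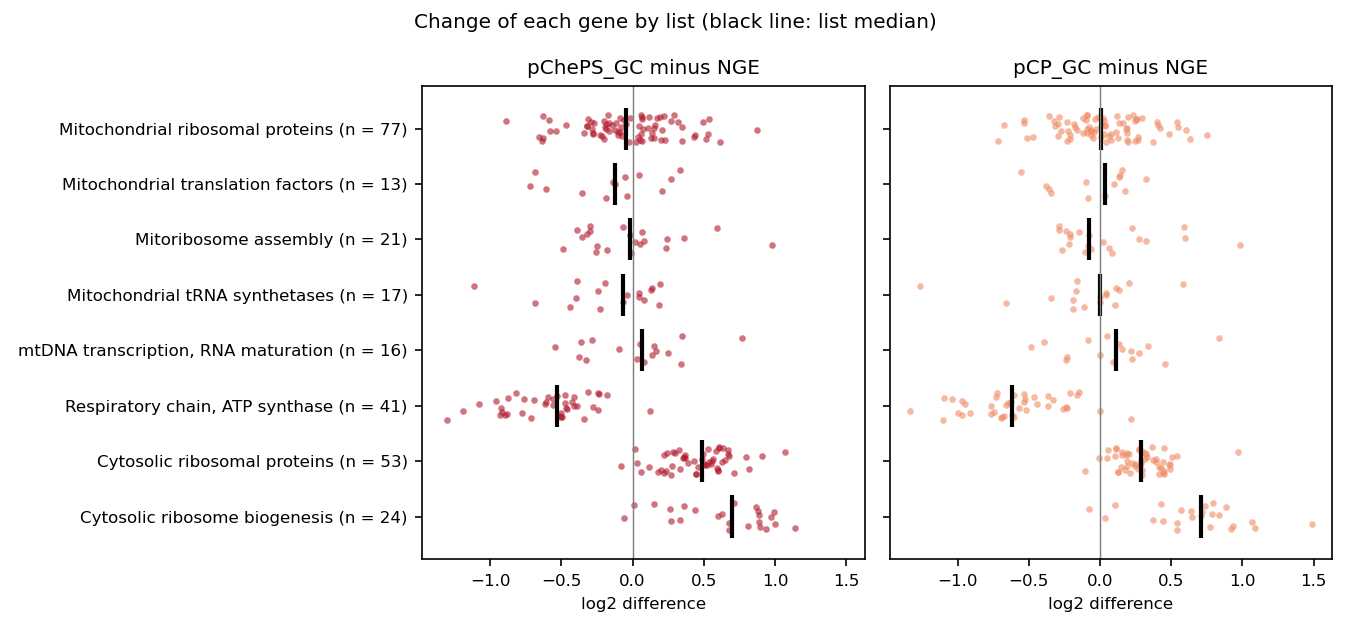
Log2 difference from NGE of every measured gene in 8 lists, pChePS_GC on the left and pCP_GC on the right, with the list median as a black line. The deposited values are drawn. Mitochondrial ribosomal proteins and the other mitochondrial translation lists lie around 0, respiratory chain genes lie mostly below 0, and both cytosolic lists lie mostly above it. After centring, which is not drawn, the medians of the mitochondrial ribosomal and translation lists lie below 0. The median of all genes then also lies below 0, at -0.27 in pChePS_GC and -0.33 in pCP_GC.

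Of 11 nuclear regulators of mitochondrial genes, 6 were higher and 3 lower in pChePS_GC, and 5 were higher and 3 lower in pCP_GC. These are 81.8% and 72.7% of the list, where 42.1% and 51.8% of all genes passed. After centring 3 were higher and 3 lower in pChePS_GC, and 2 and 3 in pCP_GC, and after quantile normalization 4 and 4, and 3 and 3. Of all genes, 59.2% passed in pChePS_GC and 62.2% in pCP_GC after centring, and 40.9% and 43.4% after quantile normalization. Nrf1, a factor whose motif was searched above, differed by 0.31 (adjusted p = 0.0178) in pChePS_GC and 0.40 (adjusted p = 0.00561) in pCP_GC, and both calls were lost under either other scaling (adjusted p from 0.168 to 0.593). Gabpb1, the partner subunit of the ETS factor GABP, rose by 1.00 (adjusted p = 4.31e-05) and 0.83 (adjusted p = 0.000274), while the DNA-binding subunit Gabpa differed by -0.10 and 0.15 and did not pass. Yy1 rose by 0.46 in pChePS_GC (adjusted p = 0.028, but 0.149 after centring) and differed by 0.37 in pCP_GC (adjusted p = 0.0658).

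Myc, a driver of ribosome production, rose by 0.97 (adjusted p = 0.00533) in pChePS_GC and 0.81 (adjusted p = 0.0135, but 0.0522 after centring) in pCP_GC. Hcfc1, a chromatin cofactor, rose by 0.68 (adjusted p = 0.000419) and 0.84 (adjusted p = 0.000204), and the coactivator Pprc1 rose by 0.51 (adjusted p = 0.0236) and 0.60 (adjusted p = 0.0127), calls lost under either other scaling (adjusted p from 0.0812 to 0.173). The nuclear receptor Esrrg had the largest fall. It measured 6.96, 7.18, 7.21 and 7.38 in pChePS_GC, 7.09, 7.75 and 6.997 in pCP_GC, and 11.98, 12.13, 11.95 and 11.77 in NGE, a difference of -4.78 (adjusted p = 2.19e-08) and -4.68 (adjusted p = 7.81e-08). Its tumour values lay near the background level given above.

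Esrra fell, with differences of -0.54 (adjusted p = 0.00328) in pChePS_GC and -1.04 (adjusted p = 0.000105) in pCP_GC, and so did the coactivator Ppargc1b, with -1.39 (adjusted p = 0.000254) and -1.31 (adjusted p = 0.000614). Ppargc1a, another coactivator, measured 6.87, 7.66, 10.85 and 9.94 in pChePS_GC, 8.52, 9.84 and 9.31 in pCP_GC, and 9.80, 10.35, 9.68 and 9.73 in NGE. Replicates 1 and 2 of pChePS_GC were far below replicates 3 and 4, and neither difference passed (adjusted p = 0.258 and 0.499).

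Probe sets of 1 gene disagreed in sign for 2 of the 8 members that had more than 1. For Mrpl47 the probe set used gave 0.18 in pCP_GC and the other gave -0.41. For Mrpl51 the values in pCP_GC were -0.08 and 0.03, and neither gene passed with the probe set used. Processed copies of ribosomal protein genes are common in mammalian genomes, and whether a probe set also detects such copies was not tested.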

How the data were processed

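Per the labels, stomach RNA of 11 samples was measured on Affymetrix arrays. The authors deposited log2 signals, 1 per probe set and array, with the log2 scale inferred from their range of 2.88 to 14.6 and array medians of 7.63 to 7.81. The submitters' processing notes name Affymetrix Expression Console. For its version, algorithm and normalization the sources used here give nothing. Of 35556 probe sets, 21789 carried 1 gene symbol in the platform annotation, 1621 several and 12146 none, and 21698 matched RefSeq (GRCm38.p6). Each of 19938 genes took its brightest probe set by the mean over 11 arrays.

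A group-means model over all 11 arrays used limma 3.58.1 (lmFit, eBayes; R 4.3.3), with two-sided p-values adjusted by Benjamini-Hochberg over all genes and a threshold of 0.05. The fit was tested on simulated data with the same spread in all groups, while the members' spread differed between the groups here. No result rests on that test. The 2 comparisons against NGE share its arrays. Members and lists were chosen with earlier results of these data known. Per comparison, named members were the 5 largest rises and 5 largest falls that passed plus 10 fixed genes, with up to 3 genes per list and all nuclear regulators. Same-numbered arrays of different groups did not deviate together (r from -0.15 to 0.16), so the number was not used for pairing. Motifs were searched on both strands of RefSeq start windows. The alternatives were a trended robust prior, fits of 2 groups, centring, quantile normalization, filters on dim genes (25% or 50%), mean probe sets, array weights, the replicate block, a stricter threshold and leaving out each array. The number of arrays limits the precision, and Trp53 was not analysed here. Counts of the comparison lists without the 2 arrays that stood apart in cell markers were added after seeing the data.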

Additional observations from a re-analysis of the deposited data

Results flagged for a closer look

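The named members and the median of all members were checked in the groups with 4 arrays, 48 groups in all. Of these, 3 held an array that stood apart from the others by Dixon's criterion at 95%, which chance meets in about 1 in 20 groups. Mrpl52 was at 10.80 in pChePS_GC replicate 4, where the other arrays of the group lay between 10.33 and 10.36. Mrpl33 was at 7.44 in NGE replicate 1, where the others lay between 7.74 and 7.77. Mrpl12 was at 10.85 in NGE replicate 4, where the others lay at 10.77 and 10.78.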

How the results depend on the processing

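Against NGE, centring left 5 members higher and 23 lower in pChePS_GC (median -0.22) and 2 higher and 18 lower in pCP_GC (median -0.21). Quantile normalization left 5 and 22 in pChePS_GC (median -0.18) and 5 and 19 in pCP_GC (median -0.18). Medians over all genes were -0.27 in pChePS_GC and -0.33 in pCP_GC after centring, and -0.07 and -0.08 after quantile normalization. The counts over all genes under both scalings are given in the Results. At an adjusted p under 0.01, 5 were higher and 3 lower in each tumour group. Of all 19938 genes, 2368 were higher and 2043 lower at that threshold in pChePS_GC, and 2656 and 4026 in pCP_GC. Array weights gave 17 higher and 8 lower in pCP_GC (22.1% and 10.4%), where 25% and 38.2% of all genes passed. Leaving out 1 array at a time gave 6 to 11 higher and 7 to 14 lower in pChePS_GC, 5 to 12 higher and 3 to 8 lower in pCP_GC, and 0 to 1 lower between the tumours. The ranges over all genes against NGE are given in the Results. Same-numbered arrays were not shown to be paired, and with the replicate block 10 were higher and 10 lower in pChePS_GC, 8 higher and 4 lower in pCP_GC, and 0 passed between the tumours. With that block 3634 of all genes were higher and 4919 lower in pChePS_GC, and 3698 and 5912 in pCP_GC. The causes of these shifts were not tested. Of the values of named members under the alternatives, 885 kept their direction and side of the threshold, 43 lost the call, 16 gained it and 12 changed sign, none of them past the threshold. In pChePS_GC against NGE, centring did so for Mrpl12 (-0.11), Mrps27 (-0.11) and Mrps30 (-0.0061), and quantile normalization for Mrps27 (-0.096). Leaving out 1 array gave -0.12 to 0.19 for Mrpl12 (below 0 without pChePS_GC replicate 4) and -0.028 to 0.18 for Mrps27 (below 0 without NGE replicate 3). Between the tumours, array weights gave -0.012 for Mrpl44, and leaving out 1 array gave -0.031 to 0.12 for Mrpl44, -0.22 to 0.045 for Mrps18b and -0.14 to 0.0084 for Mrps18c. With 3 or 4 arrays per group, the 95% interval of the difference lay within 1.5-fold for 50 of 77 members in pChePS_GC and 50 in pCP_GC.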
